A study of Danio rerio with 12 samples.

Results

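Isolated promoters were examined for the accessibility they have in zebrafish embryos with and without Supt16h. A promoter was counted as isolated when the window of 4000 bp around its start site lay on chromosomes 1 to 25 and no other window of the same table had its centre within 150 kb. The rule found 656 of 15674 windows, or 4.22% of those placed on chromosomes, and used no measured value. Their median distance to the nearest other start site was 219 kb, against 15.9 kb over all placed windows, and the largest was 1430 kb. Among the gene classes described below, developmental transcription factors, cell adhesion and synapse genes, and ion channels and transmitter receptors gave the most members. These were 48, 37 and 21, while 492 of the 656 fell in none of the classes.

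The embryos were supt16h-/- mutants and wildtype siblings, deyolked whole at 32 hours post fertilization. The protein Supt16h pairs with Ssrp1 to form FACT, which loosens nucleosomes ahead of polymerases and restores them behind. A window of signal around a start site does not check a mutation, so the genotypes rest on the labels. Each group held 3 biological replicates in 2 technical repeats, 12 libraries in all from 50000 cells each, and chromatin was read by ATAC-seq, in which Tn5 transposase cuts and tags open DNA. The sources used here give no further allele or strain detail, no number of animals per replicate, and nothing on how far maternal Supt16h persists in the mutants. Values are the authors' normalized signal on a log2 scale, averaged over technical repeats. Each difference is the mutant mean less the wildtype mean, with its standard error (SE) by limma, and a promoter was called at a Benjamini-Hochberg adjusted p under 0.05 over all 15431 tested windows. The replicates are separate samples by their column names, and whether they came from separate clutches is not given. The read depth is unknown because no counts were given. The signal is that of a whole embryo, so fewer cells of a type and less open chromatin per cell cannot be told apart.

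Genes that stand alone in wide non-coding stretches of vertebrate genomes are often developmental regulators, because the enhancers that drive them in many tissues are spread over the surrounding DNA. Large neuronal genes for adhesion, guidance and synapses also often have long introns and wide flanks. Such promoters often depend on distant elements that a window around the start site does not measure. FACT acts in transcribed chromatin, and how it bears on promoters of this kind was the question put to the table.

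Isolation in the table need not be isolation in the genome. The table lists start sites of curated RefSeq transcripts, and each member was looked up in the order of protein-coding genes of RefSeq's GRCz12tu annotation, a later assembly used here only for which genes neighbour each other. Of 627 members that could be matched, 316 (50.4%) had neither neighbour in the table, 245 (39.1%) had 1 and 66 (10.5%) had both. Among other placed windows, 12.6% had neither and 44.2% had both. Most matched members therefore have at least 1 adjacent gene that was not listed. The distance to these genes was not measured, so whether the surroundings are gene-poor cannot be told from this order. For the 66 both adjacent genes were listed. The members are called isolated promoters below in the sense of the rule alone.

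The members were spread over every chromosome from 1 to 25 and were most frequent on chromosome 4, which held 51 of them, 8.04% of its windows. Of those 51, 39 carried zinc finger or clone-derived names, and 16 fell under the minimum mean log2 signal of 4 that was set for testing. In all 28 members were not tested for that reason, 12 of them from accessions that map to several places, and their group means differed by -0.06 to 0.18 on the log2 scale. The 5 members farthest from any other start site lay on chromosome 4, and the values of their 3 mutant and 3 wildtype replicates overlapped. crestin, a marker of neural crest (chromosome 4, 45688506 to 45692506), stood 1297 kb from the next start site. Its signal was 5.98, 5.83 and 6.02 among mutants, and siblings had 5.90, 5.77 and 6.15. znf1113 and zgc:174698 differed by -0.04 ± 0.23 and -0.04 ± 0.13 (SE, 95% intervals -0.63 to 0.55 and -0.33 to 0.25). LOC103908622 and znf1068, at 3.30 to 3.57 and 3.70 to 4.56, were not tested.

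Isolated promoters covered a wider range of signal than the rest. The 628 that were tested had a median log2 signal of 7.53 with quartiles of 6.37 and 8.73, against 7.40 with quartiles of 6.26 and 8.43 in 14665 other placed promoters. Signals of 9 or more were found at 20.9% of isolated and 13.6% of other promoters, and signals under 5 at 3.82% and 2.96%. In single replicates the median of the isolated promoters was 7.50, 7.39 and 7.50 in the mutants and 7.51, 7.55 and 7.60 in the siblings. Other promoters also had lower medians in the mutants, 7.37, 7.37 and 7.38 against 7.40, 7.42 and 7.41. The median SD between biological replicates was 0.0951 at isolated and 0.0925 at other promoters. In wildtype, promoters of markers of several tissues ranged from 5.45 at gata1a of red blood cells to 9.81 at elavl3 of neurons.

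Among the 628 tested isolated promoters, 71 differed between mutants and siblings, 47 higher and 24 lower in the mutants. That is 11.3% of them, and over all tested windows the share was 11.6%. The shares by direction were 7.48% higher and 3.82% lower, beside 8.02% and 3.58% over all windows. The median difference was -0.02 (quartiles -0.11 and 0.08), the same as the median of -0.02 over all windows. The share called was thus close to the background of the whole table. A fit that blocks on the replicate number called 149, of which 82 were higher and 67 lower, where the share of all windows was 23.5% (14.0% higher and 9.47% lower). With the 12 libraries kept apart 126 were called, where the share of all windows was 19.2%. That fit counts technical repeats as independent samples, which they are not, so its p-values are too small. Called higher promoters made up 66.2% of the members' calls and 69.2% of those over all windows, and with the block 55.0% and 59.7%. After cyclic loess normalization 36 members were higher and 34 lower, beside 6.66% and 4.37% of all windows, and the higher calls were 51.4% of the members' and 60.4% of all. After quantile normalization 37 members were higher and 44 lower, beside 6.45% and 5.15% of all windows, and the higher calls were 45.7% and 55.6%. The count was 92 without mutant replicate 1 (14.6% of members, beside 14.4% of all windows), and 45 without mutant replicate 2 or 3 (7.17%, beside 8.88% and 7.23%). It was 43 without wildtype replicate 1 or 3 (6.85%, beside 6.84% and 7.35%) and 42 without wildtype replicate 2 (6.69%, beside 7.65%). All 6 values stood on separate sides at 192 members (30.6%), where the background of all windows was 29.6%, and at 69 of the 71 called ones.

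The direction follows the names of the library columns. In the authors' deposited table the fold change has the opposite sign at all 122 tested members that the table calls at an adjusted p under 0.05, 68 with a negative and 54 with a positive deposited value. That is 19.4% of the tested members, and the background for all tested windows is 19.3%. All 71 members called by limma were among the 122.

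Calls followed the level of signal. Called higher members had a median log2 signal of 9.56, and 42 of 47 lay at 8 or more, while called lower members had a median of 8.01. Of 137 members with a signal between 6 and 7, 2 were higher (1.46%) and 3 lower (2.19%), beside 2.09% and 4.11% of other promoters. Of 25 at 10 or more, 10 were higher (40.0%), beside 41.5% of other promoters, so the rise with signal was not particular to the members. The isolated promoters were therefore compared with other promoters of equal mean signal, in steps of 0.5. Set against the median of those, the median isolated promoter differed by -0.013, and 46.7% of the members lay above. The same quantity by replicate was 0.016, -0.027 and -0.019 in the mutants and -0.007, 0.01 and 0.023 in the siblings, so the groups overlapped. Weighted to the members' signals, other promoters were called higher in 9.56% and lower in 3.35%, beside 7.48% and 3.82% of the isolated ones. This comparison is a description over windows and was not tested.

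**Figure D1:**
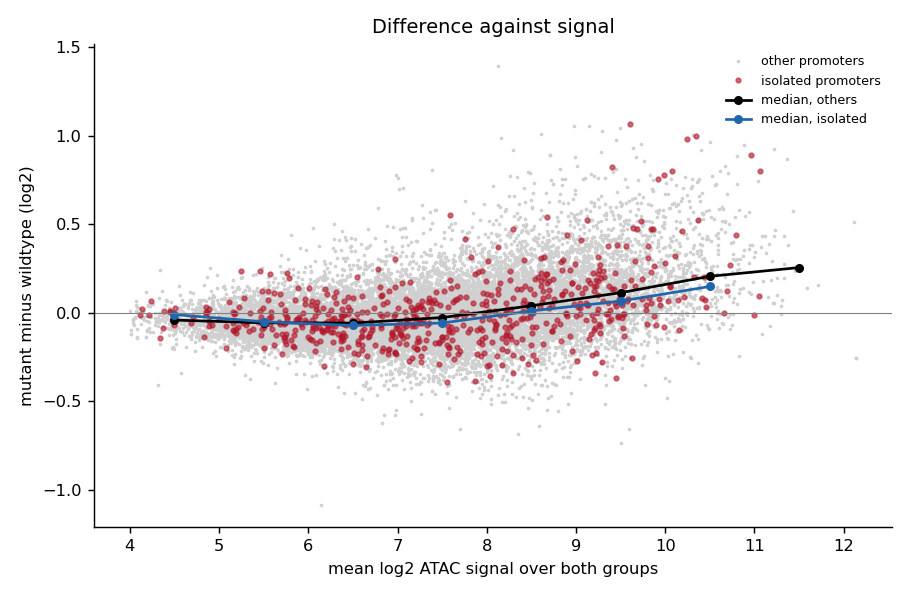
Mutant minus wildtype difference (log2) against the mean log2 signal of both groups for 628 isolated promoters (red points) and 14665 other promoters (grey points), with the median in steps of 1 log2 unit (blue line for isolated, black line for other promoters, steps with at least 20 promoters). The medians rise from -0.07 and -0.06 at a signal of 6 to 7 to 0.07 and 0.11 at 9 to 10.

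The calls between a signal of 9 and 10 are given in full, as 1 of 7 such steps and with no test. Of 106 isolated promoters there, 21 were higher (19.8%) and 6 lower (5.66%), and of 1595 others 24.5% were higher and 1.00% lower. The 6 that fell were those of lrrc4.2, tox2, skia, roraa, lsm6 and robo2, named here after their values were seen. With the replicate block 7 isolated promoters fell (6.60%) beside 3.76% of others. After cyclic loess normalization 12 fell (11.3%) beside 8.65%, and after quantile normalization 16 (15.1%) beside 10.4%. With the 12 libraries kept apart 6 fell (5.66%) beside 1.88%. Without mutant replicates 1, 2 and 3 in turn, 3, 4 and 2 isolated promoters fell, beside 1.19%, 0.752% and 0.627% of others. Without wildtype replicates 1 and 2, 2 and 1 fell, beside 0.94% and 0.376%. Without wildtype replicate 3, limma called 0 of 106 isolated promoters lower beside 7 of 1595 others (0.439%). These calls are too few to order the shares. At a signal of 10 or more, 0 of 25 isolated and 1.48% of other promoters were called lower, again too few to order. Between 8 and 9 the lower shares were 5.65% of isolated and 3.66% of other promoters. Between 7 and 8 they were 6.06% and 6.90%, and between 6 and 7 2.19% and 4.11%.

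No step was seen at 150 kb. The share of promoters called higher was 9.35% for those within 1 kb of another start site, 8.31% from 1 to 10 kb, 7.71% from 10 to 50 kb, 6.93% from 50 to 150 kb, 6.93% from 150 to 300 kb and 9.04% beyond 300 kb. The share called lower went from 2.19% within 1 kb to 4.29% from 50 to 150 kb, and was 3.90% and 3.61% in the isolated classes. After cyclic loess normalization the higher shares spanned 5.63% to 6.93%. The lower shares on that scale rose with distance, from 3.81% within 1 kb to 5.07% from 50 to 150 kb, 5.19% from 150 to 300 kb and 6.02% beyond 300 kb. After quantile normalization the same classes had lower shares of 4.45%, 6.11%, 6.71% and 7.83%. With the replicate block these were 6.00%, 10.6%, 10.4% and 11.4%. The trend with distance was not tested. The 39 members within 5 kb above the limit had a median difference of -0.01 with 2 called, and the 41 windows within 5 kb below it had 0.01 with 3 called. In the 65 tested members with both RefSeq neighbours in the table, 8 were higher and 6 lower (21.5%, beside 11.6% of all windows). The median was -0.08. The replicate block gave 10 higher and 13 lower, and cyclic loess normalization 6 and 6. The counts were 11 and 9 (16.9% and 13.8%) without mutant replicate 1, where 14.4% of all windows were called. They were 6 and 4 (9.23% and 6.15%) without mutant replicate 2 or wildtype replicate 3, where 8.88% and 7.35% were called. They were 5 and 3 (7.69% and 4.62%) without mutant replicate 3 or wildtype replicate 1 or 2, where 7.23%, 6.84% and 7.65% were called. This subset was formed after the data were seen and was not tested.

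**Figure D2:**
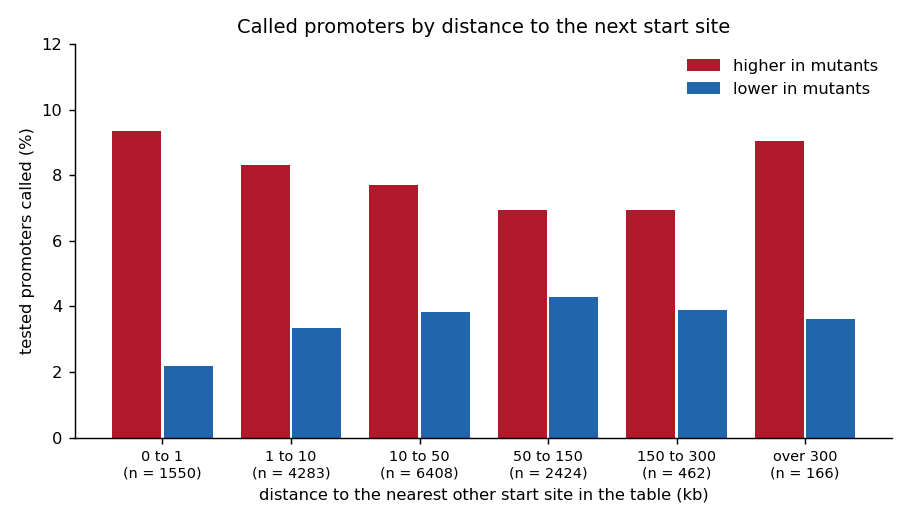
Share of tested promoters called higher (red bars) or lower (blue bars) in mutants, in percent, by distance to the nearest other start site in the table in kb, with the number tested under each class. The higher share is 9.35% within 1 kb, 6.93% in the class just beyond 150 kb and 9.04% beyond 300 kb.

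The strongest changes at isolated promoters were rises. A difference over 0.5 was found at 14 members (2.23%, beside 1.91% of all windows). On this scale no member fell by that much, and only 0.143% of all windows did. The largest fall of a member was -0.39. The authors' deposited log2 fold changes, opposite in sign, were larger in size, with -1.44 at fzd8a, 0.59 at nrxn1a and 0.60 at scrt1b. By the deposited values some falls therefore exceeded 0.5. fzd8a, a Wnt receptor (chromosome 24, 4416451 to 4420451), stood at 9.91, 10.21 and 10.31 in the mutants and at 9.03, 9.13 and 9.06 in the siblings, a rise of 1.07 ± 0.09 (2.10-fold, adjusted p = 2.4e-06). The related receptor gene fzd7a (chromosome 9, 13381834 to 13385834) had 10.50, 10.77 and 10.93 against 9.75, 9.76 and 9.75, a rise of 0.98 ± 0.09 (adjusted p = 4.9e-06). At both receptor genes every mutant replicate lay above every sibling. They were the only frizzled genes among the isolated promoters.

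SoxC and SoxB1 genes were also among the 10 largest rises. sox11b (chromosome 20, 30130413 to 30134413) and sox11a (chromosome 17, 35932202 to 35936202) encode SoxC factors of newly forming neurons. sox11b stood at 10.78, 11.00 and 10.76 in the mutants and 9.87, 9.90 and 9.78 in the siblings, a rise of 1.00 ± 0.08 (adjusted p = 1.4e-06). sox11a stood at 10.36, 10.45 and 10.62 against 9.77, 9.60 and 9.65, a rise of 0.80 ± 0.08 (adjusted p = 8.3e-06). sox2, a SoxB1 factor of neural progenitors (chromosome 22, 37413060 to 37417060), stood at 10.34, 10.37 and 10.41 against 9.66, 9.63 and 9.49, a rise of 0.78 ± 0.08 (adjusted p = 6e-06). In all of these the groups were apart by several times the spread within them. Of the 9 isolated sox promoters, 4 rose and none fell, the fourth being sox9a, of cartilage and neural crest (0.47 ± 0.09, adjusted p = 0.00255). Over all windows 8.02% rose. The 9 had a median signal of 9.26, and 24.5% of other promoters between 9 and 10 rose, and 41.5% at 10 or more. sox5, sox1b, sox9b, sox6 and sox14 lay between -0.08 and 0.24 and did not pass, though sox9b did with the replicate block (adjusted p = 0.0145).

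Other large rises came from genes of varied function. mex3b, an RNA-binding protein (chromosome 7, 11810707 to 11814707), stood at 11.45, 11.43 and 11.35 in the mutants and 10.56, 10.55 and 10.45 in the siblings (0.89 ± 0.07, adjusted p = 1.4e-06). pim1, a serine/threonine kinase (chromosome 8, 10265316 to 10269316), had the highest mean over both groups among isolated promoters, at 11.45, 11.46 and 11.47 against 10.66 in each sibling replicate (0.80 ± 0.07, adjusted p = 2.1e-06). The replicates of pim1 differed by far less than the groups. cx43.4, a gap junction protein (chromosome 9, 46613334 to 46617334), rose by 0.83 ± 0.08, and gas1a, a membrane protein that binds Hedgehog ligands in vertebrates (chromosome 5, 43894652 to 43898652), by 0.76 ± 0.08. ppp1cbl, a catalytic subunit of protein phosphatase 1 (chromosome 7, 74068006 to 74072006), rose by 0.55 ± 0.08 from a lower signal, 7.27 to 7.34 in the siblings. gas1a lay just beyond the limit of 150 kb. These 10 rises remained called in each fit that left out a replicate, with the replicate block, and after cyclic loess and quantile normalization.

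**Figure D3:**
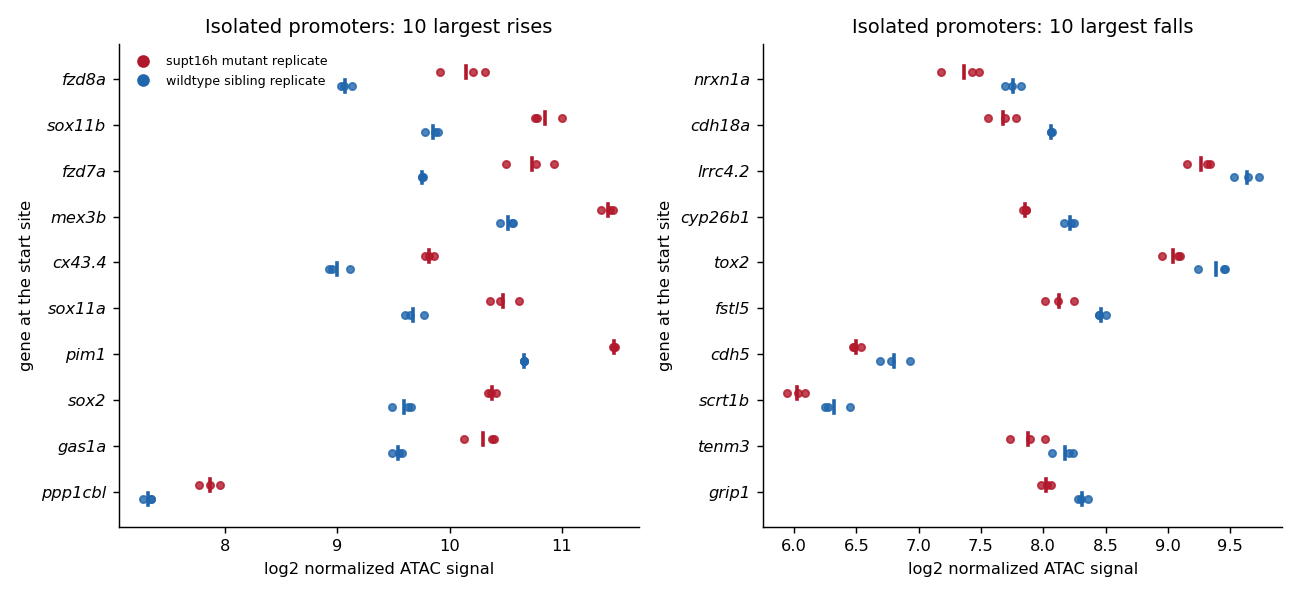
Log2 normalized ATAC signal of the 10 isolated promoters with the largest called rise (left) and the 10 with the largest called fall (right), each point 1 of 3 biological replicates per group and each vertical bar the group mean. The mutant points of fzd8a sit at 9.91 to 10.31 and its sibling points at 9.03 to 9.13, while the falls are smaller, from 7.18 to 7.48 against 7.69 to 7.82 at nrxn1a.

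The 5 most open isolated promoters, by the mean over both groups, were those of pim1, marcksl1a, ppiab, mex3b and pcdh18b, at 11.06 to 10.79. Among siblings alone marcksl1a and ppiab, each at a mean of 11.00, stood above pim1 at 10.66. marcksl1a, which encodes a cytoskeletal protein (chromosome 13, 46038882 to 46042882), had 11.14, 11.03 and 11.11 in the mutants and 10.91, 11.01 and 11.07 in the siblings. Its groups overlapped and the difference of 0.10 ± 0.08 did not pass (adjusted p = 0.477), and its sign turned after cyclic loess (-0.19, adjusted p = 0.0944) and quantile normalization (-0.22, adjusted p = 0.0294). ppiab, a cyclophilin (chromosome 10, 45496962 to 45500962), differed by -0.01 ± 0.09 (95% interval -0.20 to 0.18). It was called lower after cyclic loess (-0.29, adjusted p = 0.0143) and quantile normalization (-0.33, adjusted p = 0.00662). pcdh18b, a protocadherin (chromosome 14, 41803247 to 41807247), stood at 11.05, 10.95 and 11.05 against 10.44, 10.68 and 10.60, a rise of 0.44 ± 0.08 (adjusted p = 0.00145). That call was lost after cyclic loess (0.18, adjusted p = 0.121) and quantile normalization (0.13, adjusted p = 0.185).

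The falls were smaller, and 5 of the 10 largest belonged to the cell adhesion and synapse class. That class held 37 of the 628 tested members. nrxn1a, a presynaptic adhesion protein, has 2 isolated start sites, and the one at chromosome 12, 24438613 to 24442613, stood at 7.48, 7.18 and 7.43 in the mutants and 7.69, 7.75 and 7.82 in the siblings. It fell by 0.39 ± 0.09 (adjusted p = 0.00551), while the other, at 24219084 to 24223084, differed by -0.15 ± 0.08 and did not pass (adjusted p = 0.228). Whether the start sites of nrxn1a differ from each other was not tested. cdh18a, a cadherin (chromosome 2, 29264053 to 29268053), stood at 7.69, 7.56 and 7.78 against 8.06, 8.06 and 8.07, a fall of 0.39 ± 0.08 (adjusted p = 0.00297). cyp26b1, an enzyme that breaks down retinoic acid (chromosome 7, 25051131 to 25055131), stood at 7.84, 7.86 and 7.86 against 8.17, 8.22 and 8.25, a fall of 0.36 ± 0.07 (adjusted p = 0.00334). These 3 were the called falls that remained called in every fit without a replicate.

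The other 7 of the 10 largest falls were each lost in at least 1 such fit, although the replicate block called them all. lrrc4.2, a synaptic leucine-rich repeat protein (chromosome 18, 10327338 to 10331338), fell by 0.37 ± 0.08 (adjusted p = 0.00715, and 0.0531 without wildtype replicate 3). fstl5, a secreted follistatin-like protein (chromosome 14, 48325544 to 48329544), fell by 0.34 ± 0.08 (adjusted p = 0.00938, and 0.057 without mutant replicate 3). tox2, an HMG-box protein (chromosome 6, 58150418 to 58154418), fell by 0.34 ± 0.08, with an adjusted p of 0.056 without mutant replicate 2, 0.0736 without wildtype replicate 2 and 0.0735 without wildtype replicate 3. cdh5, the cadherin of endothelial junctions (chromosome 7, 44104370 to 44108370), fell by 0.31 ± 0.08, with an adjusted p of 0.0993 when wildtype replicate 3 was left out and 0.0553 on the cyclic loess scale. kdrl, another endothelial gene, whose promoter was not isolated, differed by -0.02. scrt1b, a zinc finger repressor of neurons (chromosome 16, 31228788 to 31232788), fell by 0.30 ± 0.08, with 0.0635 without mutant replicate 2 and 0.111 without wildtype replicate 3. tenm3, a teneurin that guides synaptic wiring in the eye (chromosome 1, 38824135 to 38828135), fell by 0.30 ± 0.09, with 0.159 when mutant replicate 3 was left out, 0.14 when wildtype replicate 1 was and 0.104 when wildtype replicate 2 was. grip1, a scaffold of glutamate receptors (chromosome 4, 13254851 to 13258851), fell by 0.29 ± 0.07, with 0.0525 when mutant replicate 2 was left out, 0.0726 when wildtype replicate 1 was and 0.0506 when wildtype replicate 2 was.

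By class of gene, the isolated promoters held 10.8% of 445 promoters of developmental transcription factors, 24.2% of 153 of cell adhesion and synapse genes and 23.2% of 69 of axon guidance genes. They held 1.64% of 122 cell cycle and replication promoters and 1.79% of 280 for ribosome, translation and proteasome, beside 4.22% of all placed windows. These classes are patterns of gene symbols and hold a few genes of other roles, such as lrrc40 and igfn1.1 among the isolated ones, and the splicing factors cdc5l and cdc40 as the sole isolated cell cycle entries.

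Of 48 isolated developmental transcription factor promoters, 11 rose (22.9%), 3 fell (6.25%) and 34 did not pass. Over all windows 8.02% rose and 3.58% fell. The median difference was 0.02 and the median signal 8.68. Relative to other promoters of equal signal the median difference was -0.03. Of 397 other promoters of the class, 11.3% rose and 9.07% fell at a median signal of 7.82. Beside the sox genes, nr2f2, a nuclear receptor of veins, rose by 0.48 ± 0.09 (adjusted p = 0.00153). meis2a, sall1a, tshz1, nr2f1a and irx3a, regulators of patterning, rose by 0.28 to 0.31, and none of these 5 was called without wildtype replicate 2 (adjusted p = 0.0503 to 0.127). gbx2, of the boundary between midbrain and hindbrain, lmx1bb and lmo1 fell by 0.25, 0.26 and 0.23. These 3 falls were each lost without mutant replicate 3 or any 1 of the wildtype replicates (adjusted p = 0.0605 to 0.184). pax2a, pax2b, pax6a and pax6b, of the eye and brain, lay between -0.16 and 0.01 and did not pass. After cyclic loess normalization 7 rose and 3 fell and the median turned to -0.03, with the rises of meis2a (0.10), nr2f1a (0.14), irx3a (0.20) and sall1a (0.21) and the falls of lmx1bb (-0.24) and lmo1 (-0.21) no longer called. Without mutant replicate 1, 13 rose and 3 fell (27.1% and 6.25%), where 14.4% of all windows were called in either direction. Without mutant replicate 2, mutant replicate 3 or wildtype replicate 1 or 3, 7 rose (14.6%), and without wildtype replicate 2, 5 did (10.4%). In these fits 6.84% to 8.88% of all windows were called. The number that fell came to 1 without mutant replicate 2 and to 0 without mutant replicate 3 or any wildtype replicate. With the replicate block 15 rose and 5 fell (31.2% and 10.4%, beside 14.0% and 9.47% of all windows).

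Of 37 isolated cell adhesion and synapse promoters, 3 rose (8.11%) and 6 fell (16.2%), and 28 did not pass. Over all windows the shares were 8.02% and 3.58%. Their median difference was -0.07 at a median signal of 7.26, and -0.08 relative to other promoters of equal signal. Of 112 other promoters of the class, 1.79% rose and 8.04% fell. The rises were pcdh18b, cdh2, which is N-cadherin (0.38 ± 0.09, adjusted p = 0.00734), and pcdh17 (0.27 ± 0.08, adjusted p = 0.0373). None of the 3 was called after cyclic loess normalization (adjusted p = 0.121, 0.142 and 0.24). The falls were nrxn1a, cdh18a, lrrc4.2, cdh5, tenm3 and cntn4, a contactin (-0.28), a list that after cyclic loess normalization also counted 6 but without cdh5 and cntn4 (adjusted p = 0.0553 and 0.0626). cntn4 was also lost without mutant replicates 2 and 3 or any 1 of the wildtype replicates (0.0616 to 0.13), and pcdh17 in each fit without a replicate other than wildtype replicate 3 (0.0626 to 0.155). The call of cdh2 was lost without wildtype replicate 3 (0.0536). Without mutant replicate 1, 7 fell (18.9%), where 14.4% of all windows were called in either direction. Without mutant replicate 2 or wildtype replicate 1, 5 fell (13.5%), and without mutant replicate 3 or wildtype replicate 2 or 3, 4 did (10.8%). In these 5 fits 6.84% to 8.88% of all windows were called. In each fit without a replicate 2 rose. After quantile normalization 7 fell (18.9%, beside 5.15% of all windows) and none rose. With the replicate block 13 fell and 3 rose (35.1% and 8.11%, beside 9.47% and 14.0% of all windows). The 5 isolated neuroligin genes nlgn1, nlgn2a, nlgn3a, nlgn4a and nlgn4b, postsynaptic partners of neurexins, lay between -0.17 and 0.05 at signals of 6.04 to 6.49, and limma called none of them (1 at an unadjusted p under 0.05, and nlgn1 lower with the replicate block at an adjusted p of 0.0378).

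Promoters of ion channels and transmitter receptors were weakly open, with a median signal of 6.60 over 21 isolated members. limma called none of them, with 4 at an unadjusted p under 0.05 and 3 called lower with the 12 libraries kept apart. Their median difference was -0.13, and -0.09 after cyclic loess normalization. Relative to other promoters of equal signal it was also -0.09. The 234 other promoters of the class had a median of -0.08, and 6.84% of them fell. The 7 potassium channel genes, among them kcnd1, kcnd2 and kcnd3, lay between -0.18 and -0.01, and the glutamate receptor genes gria1a, gria3b and gria4a at -0.20, -0.26 and -0.14. With the replicate block 5 of the 21 were called lower (23.8%, beside 9.47% of all windows) and none higher. Without mutant replicate 1, 1 was called lower. Of 17 isolated genes for secreted signals and their receptors, fzd8a and fzd7a rose and fgf14 fell (-0.29, adjusted p = 0.0198), and the class had a median difference of -0.07. fgf14 was not called on the cyclic loess scale (0.0508), nor when mutant replicate 2 was left out (0.095), nor when any 1 of the wildtype replicates was (0.0535 to 0.0781). In this class 4 rose and 2 fell without mutant replicate 1. With the replicate block 3 rose and 3 fell (17.6% each, beside 14.0% and 9.47% of all windows). Of 184 other promoters of the class, 5.43% rose and 3.26% fell.

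Of 16 isolated axon guidance promoters, robo2, a receptor for Slit proteins (chromosome 15, 38956371 to 38960371), fell by 0.24 ± 0.07 (adjusted p = 0.0496) and 15 did not pass. robo2 stood at 9.01, 9.07 and 9.09 in the mutants and 9.28, 9.33 and 9.27 in the siblings. Its groups did not overlap, but the call was lost without any of the 6 replicates (adjusted p = 0.0671 to 0.188). With the replicate block robo2 was called lower (adjusted p = 0.00744). After cyclic loess normalization 2 fell, robo2 among them (-0.35, adjusted p = 0.00313). robo2 was also called after quantile normalization (-0.36, adjusted p = 0.00244). Of 53 other axon guidance promoters, 9.43% rose and 7.55% fell. Of 10 isolated microRNA promoters, mir29b-1 (chromosome 6, 47467659 to 47471659) stood at 8.34, 8.24 and 8.36 against 8.46, 8.62 and 8.73, a fall of 0.29 ± 0.08 (adjusted p = 0.0339). The fall of mir29b-1 was not called when mutant replicate 2 (0.111), mutant replicate 3 (0.0553), wildtype replicate 2 (0.108) or wildtype replicate 3 (0.174) was left out. With the replicate block it was called (adjusted p = 0.00567), as it was after cyclic loess (adjusted p = 0.0142) and quantile normalization (adjusted p = 0.0123). The other 9, mir30a, mir31 and mir430a-1 among them, lay between -0.12 and 0.03. None of 5 isolated extracellular matrix genes, 2 cell cycle entries, 5 of ribosome, translation and proteasome, or 2 tested immune genes was called by limma, though psmd14, a proteasome subunit (0.19 ± 0.08), had an unadjusted p under 0.05 and was called higher with the replicate block (adjusted p = 0.049). Among other promoters, 12.5% of 64 extracellular matrix and 2.5% of 280 immune ones fell, and none rose. Of 120 other cell cycle promoters 26.7% rose and 2.5% fell, and of 274 for ribosome, translation and proteasome 33.9% and 0.73%. With so few isolated members, the lack of calls does not set these classes apart from their other promoters.

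**Figure D4:**
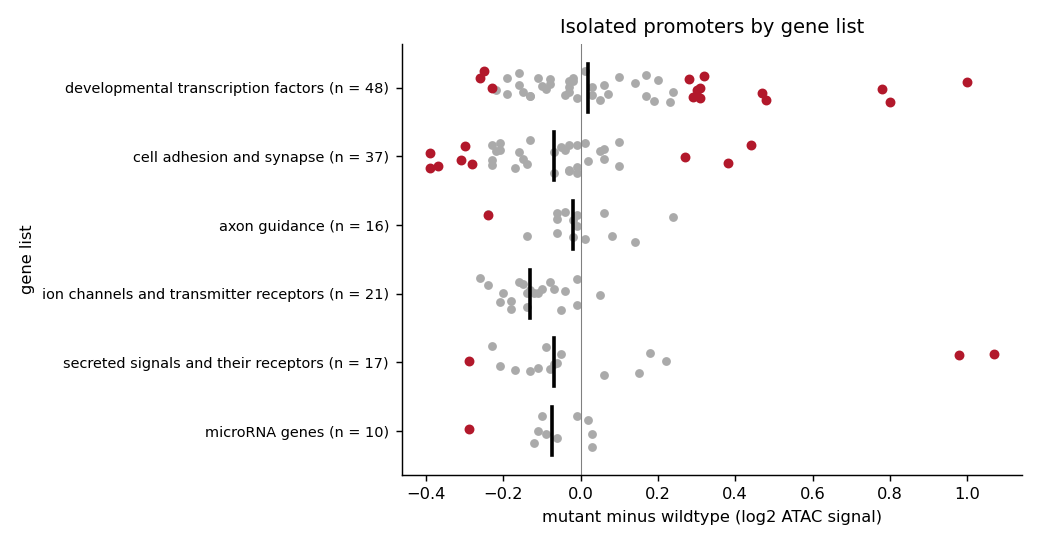
Mutant minus wildtype difference (log2) of each tested isolated promoter in the gene classes with at least 10 members, with called promoters in red, others in grey and the class median as a black bar. The medians run from -0.13 in ion channels and transmitter receptors to 0.02 in developmental transcription factors, and the rises of 0.98 and 1.07 in the class of secreted signals are fzd7a and fzd8a.

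Zebrafish kept many gene copies from an ancient genome duplication of teleosts, and 17 such copies named a and b were both isolated. In 1 case, sox11a and sox11b, both copies were called. In 2 cases 1 copy was called, sox9a at 0.47 beside sox9b at 0.24 (adjusted p = 0.114), and pcdh18b at 0.44 beside pcdh18a at 0.10 (adjusted p = 0.506). In the other 14 the main fit called no copy, and 7 of the 17 had both differences on the same side of 0. These counts hold for the main fit only. With the replicate block sox9b, dkk1b (adjusted p = 0.0194) and pcdh15b (adjusted p = 0.0207) were among the copies called. The copies' differences were apart by at most 0.34. Their signals were apart by a median of 0.54 and at most 2.94, the latter at gli2a and gli2b, transcription factors of Hedgehog signalling, at 9.20 and 6.26. The difference between copies was not tested.

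**Figure D5:**
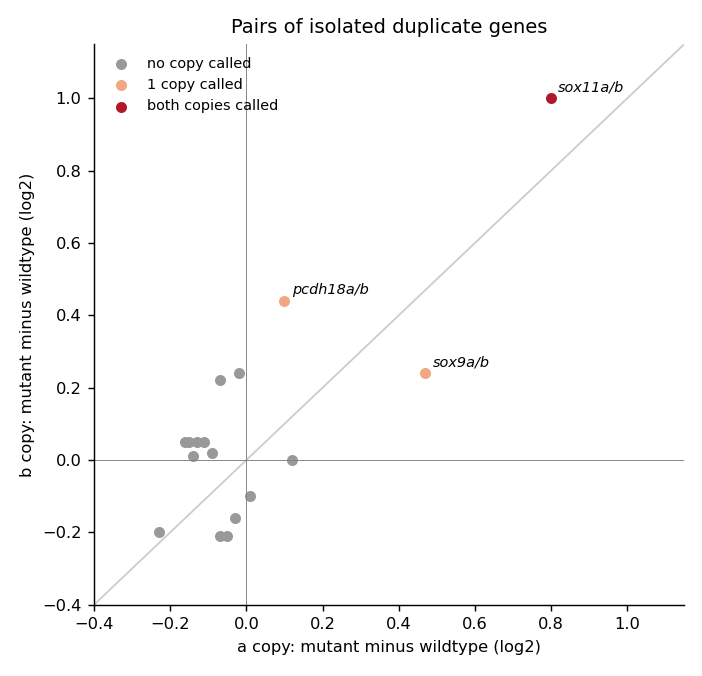
Mutant minus wildtype difference (log2) of the a copy (horizontal) and the b copy (vertical) of 17 duplicate genes whose promoters were both isolated, with the diagonal marking equal values. sox11a and sox11b lie at 0.80 and 1.00, far from the remaining points, which lie between -0.23 and 0.47.

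Among all 71 called members, 29 were called in each of the 6 fits without a replicate, 26 of them higher and 3 lower. Called in the deposited scale, after cyclic loess and after quantile normalization alike were 51, 33 higher and 18 lower. The matching counts over all windows were not made, so whether these splits are particular to isolated promoters cannot be told. The shares that follow are for single fits and do not replace them. Over all windows, higher calls were 71.4% to 78.1% of the calls in the single fits without a replicate. On the 3 scales they were 69.2%, 60.4% and 55.6%. jarid2b and aebp2, accessory proteins of the Polycomb complex that methylates H3K27, were among those that rose (0.48 ± 0.08 and 0.47 ± 0.08, adjusted p = 0.00094 and 0.00054). So did ccnt2b, a cyclin of the elongation factor P-TEFb, and cited4a, a transcriptional coactivator (0.54 ± 0.08 and 0.53 ± 0.09). These 4 were picked out after their values were seen.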

How the data were processed

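ATAC-seq signal was measured in 12 libraries of whole embryos. The submitters' processing notes name CASAVA 1.8, FastQC 0.11.2 and HOMER 4.9 and, as build, GRCz10 (danRer10). No source used here gives the aligner, read filters, duplicate removal or Tn5 shift, and differences between libraries in these steps would enter the values. The library columns hold normalized log2 signal deposited by the authors, whose transformation is not named. It behaves like one that shrinks low values, so differences understate change at weak windows. A log2 fold change and p-values from an unnamed test stand beside it, as deposited by the authors. No depth is given.

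Repeated entries (16555) were averaged into 15674 windows, of which 143 lie on unplaced contigs. Collapsed entries differed by at most 0.219. Of 567 unnamed entries, 548 were named by RefSeq accession. The annotation headings are shifted against their values and were read by content. Coordinates are those of the table.

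The 2 technical repeats were averaged and 3 replicates were compared with 3 by limma 3.58.1 in R 4.3.3 (trend and robust options), over 15431 windows with a mean log2 signal of at least 4. The fit was tested on simulated data. No label states that samples of equal replicate number belong together. Deviations from group means correlated at 0.461, 0.513 and 0.534 between equal numbers and at -0.328 to -0.173 otherwise. Each group was centred on its own mean, so the negative values partly follow from the positive ones. Because equal numbers correlated, the fit with the replicate number as a block is given for the members and for several classes and single promoters. It called 149 members where the main fit called 71, and not every changed call is named. The fits that left out a replicate did not use the block and had 1 sample fewer. Windows named in the text were the 10 largest called rises and falls without overlap of the groups, the 5 most open, the 5 most isolated, and the 2 largest called changes per gene class, leaving out accessions that map to several places; others are given by family or marked. The members, gene classes and tests were chosen with earlier results of these data known, and neighbouring windows are not independent. Promoter sequences were not used here. Figures were drawn with matplotlib 3.10.9.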

Additional observations from a re-analysis of the deposited data

How the results depend on the processing

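With the replicate block, 149 isolated promoters were called, 82 higher and 67 lower, and with the 12 libraries kept apart 126 were, 58 of them lower. Quantile normalization gave 44 lower (7.01%, beside 5.15% of all windows). With isolation set at 100 kb there were 142 calls among 1219 tested, 91 higher and 51 lower. At 300 kb there were 21 among 166 tested (12.7%, beside 11.6% of all windows), 15 higher and 6 lower. These rules admit more or fewer windows, so the counts move with the number tested. Of members with both RefSeq neighbours in the table, 14 were called, 8 higher and 6 lower, with a median difference of -0.075, and -0.056 relative to others of equal signal. Without single replicates the number called ran from 42 to 92, higher from 32 to 59 and lower from 7 to 33, the median difference from -0.036 to -0.009, and that relative to others of equal signal from -0.031 to -0.001. At 300 kb the latter was 0.005. The level filter, chromosome 4, accessions at several places and narrower steps of signal moved none of these by more than 1.5 times or by more than the spread between replicates. Among the 28 tested promoters named by the rule, cyclic loess normalization changed 3 calls and the replicate block none. Quantile normalization turned marcksl1a from 0.10 to -0.22. For single promoters this setting was added after the data were seen, as was the subset by RefSeq neighbours. The cause was not tested. Depth is unknown, so weak windows carry an error that cannot be stated in counts.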
